A study of Mus musculus with 7 samples.

Results

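Heterochromatin, the condensed and largely silent part of the genome, is built by enzymes that methylate histone H3 at lysine 9 (H3K9), by proteins that bind this mark, and by enzymes that methylate DNA at CG dinucleotides. A list of 33 genes of this machinery was followed in the testis of mice that lack Phf13. Each gene was represented by the probe set, among those annotated to that gene alone, with the highest mean signal over all arrays. By this rule 32 of the 33 genes were measured, out of 18194 genes in all, and Suv39h1 was not, since the annotation used here pairs no probe set with it.

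Whole testes were taken from mice 15 to 20 weeks old, either Phf13 knockout (n = 3 arrays) or wild type (n = 4 arrays), and their RNA was hybridised to Affymetrix expression arrays. The labels name the deleted gene but give neither the part of it that was removed, nor the strain, nor whether the deletion was limited to a cell type. They do not say that each array is a separate animal, so a p-value here reflects the spread between these arrays alone, which may be technical. Values are log2 signals, so a difference of 1 is a doubling.

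In male germ cells, H3K9 methylation silences retrotransposons, marks the centromeric heterochromatin and accompanies the silencing of the X and Y chromosomes in meiosis. New DNA methylation is laid down in the fetal germ line and is kept through later divisions by the maintenance enzyme. Phf13, also called SPOC1, is a PHD finger protein that binds H3 methylated at lysine 4, and in cultured cells it has been linked with KAP1 (the product of Trim28) and with H3K9 methyltransferases. The comparison asks whether transcripts of this machinery differ in testis without Phf13.

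Phf13 itself lay between 5.71 and 6.04 on the knockout arrays and between 8.54 and 8.73 on the wild type arrays, a log2 fold change of −2.78 (SE 0.09, limma adjusted p = 8.76e-06). The germ cell genes Prm1 and Sycp3, the Leydig cell gene Cyp17a1 and the Sertoli cell gene Sox9 were above the array medians (5.01 to 5.08) on all 7 arrays, their lowest signals being 13.86, 11.28, 10.58 and 5.60. The first principal component (51.5% of the variance) held the knockout arrays between −25.1 and −17.1 and the wild type arrays between 7.23 and 27.4. On the second principal component (16.5% of the variance) knockout 2 lay apart at 22.8, the other 6 arrays lying between −10.5 and 6.23. Arrays whose titles open with the same 4 digits form 3 groups, here called title-number groups. The first holds knockout 1 and wild type 1, the second knockout 2, wild type 2 and wild type 3, and the other the remaining pair, knockout 3 and wild type 4. What these digits stand for is not given in the labels.

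Most genes of the heterochromatin machinery did not pass the test between genotypes. Of 32 measured genes, 3 rose in knockout testis (limma adjusted p under 0.05), 0 fell and 29 did not pass. The 3 were Atrx, a chromatin remodeller, Ehmt1, an H3K9 methyltransferase, and Tet2, which oxidises methylated DNA. Over all genes tested, 16.1% passed, 9.07% rose and 7.05% fell, so the 9.38% of heterochromatin genes that rose is near the background. Their median log2 fold change was −0.03, against −0.045 over all genes, and the median size of a change was 0.13 against 0.14. At an unadjusted limma p under 0.05 there were 7 higher and 2 lower genes, 28.1% of the list, where 33.8% of all genes reached it. The genotypes were fully apart for 7 of the 32 genes (21.9%), 6 higher and 1 lower, against 28.0% of all genes (12.8% higher and 15.2% lower).

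These calls depended on which arrays were kept. Without knockout 3 only Atrx still rose among the 32 genes, and over all genes the calls went from 2934 to 175. With a whole title-number group left out, which leaves 2 knockout arrays and 2 or 3 wild type arrays, 0 of the 32 genes passed in limma and 3, 0 and 4 genes of 18194 did. Adjusted p of Atrx was then 0.0748 to 0.127, of Ehmt1 0.0996 to 0.127 and of Tet2 0.0926 to 0.137 (limma). Their log2 fold changes in these fits were 1.01 to 1.04, 0.43 to 0.56 and 0.43 to 0.68, against 1.04, 0.48 and 0.51 with all arrays. Blocking on title-number group, 4 of the 32 genes rose (Atrx, Dnmt3a, Ehmt1 and Tet2) and 0 fell, where 7.71% of all genes rose and 5.03% fell.

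Marker genes of testis cell types moved with genotype too. Sertoli markers had 12 of 14 measured genes higher and 0 lower (median log2 fold change 0.62), and their mean log2 signal was 8.42 to 8.60 over the knockout arrays and 7.79 to 8.13 over the wild type arrays. Leydig markers had 6 of 9 higher (mean signal 9.13 to 9.55 against 8.19 to 8.70), peritubular myoid markers 4 of 8 (7.56 to 7.83 against 7.05 to 7.30) and macrophage markers 7 of 12 (6.55 to 7.20 against 6.10 to 6.46), each with 0 lower. Spermatogonial markers had 4 of 14 higher (6.56 to 6.75 against 6.40 to 6.59), whereas 3 of 16 spermatocyte markers (8.99 to 9.17 against 9.18 to 9.25) and 5 of 18 spermatid markers (11.48 to 11.49 against 11.56 to 11.72) fell and 0 rose. The shares were 28.6% of spermatogonial markers higher, and 18.8% of spermatocyte and 27.8% of spermatid markers lower. Over all genes tested, 9.07% rose and 7.05% fell. The marker lists were chosen with earlier results of these data known, so these shares only describe them. In whole testis, more or fewer cells of a type and a different amount of RNA per cell cannot be told apart. The part of these cell types in the rises of Atrx, Ehmt1 and Tet2 and in the changes of the other pathway genes was not tested.

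On the probe set that represents each gene, intervals differed in width. The 95% confidence interval of the log2 fold change lay within 0.2 of zero on either side for 5 of the 32 genes and within 0.3 for 14. It lay within 0.5 for 26 genes and within 1 for 31. A gene that did not pass was therefore not shown to be unchanged. Among the 29 genes that did not pass, log2 fold changes ran from −0.30 (Pphln1) to 0.46 (Dnmt3a). The sign of the difference was the same in all 3 title-number groups for 22 of the 32 genes (68.8%), and for 53.9% of all genes.

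**Figure D1:**
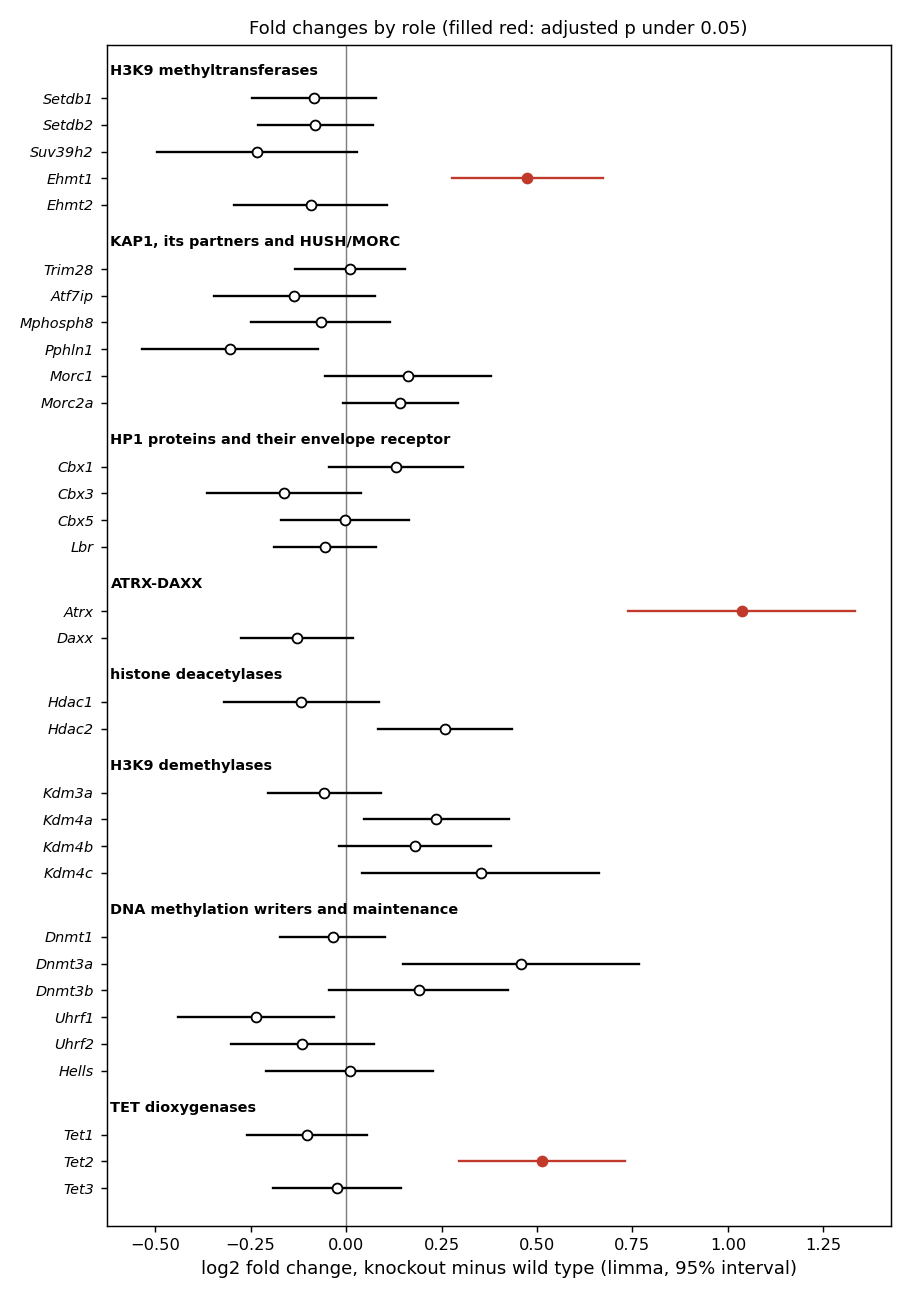
Log2 fold changes (knockout minus wild type, horizontal axis) of the 32 measured heterochromatin genes, grouped by role, with 95% confidence intervals from limma (3 knockout and 4 wild type arrays). Filled red points mark Ehmt1 (0.48), Atrx (1.04) and Tet2 (0.51), the genes past an adjusted p of 0.05, and the open points of the other 29 genes lie between −0.30 and 0.46.

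The 5 prime flanks of genes that rose are shown because CG dinucleotides, in capitals, are the sites that the DNA methylation enzymes of this list act on. They were read from the RefSeq promoter table (GRCm38.p6), which matched 30 of the 33 genes, and are the bases before a transcript start, left of it as the gene is read. That of Atrx is chrX:105929373-105929622 on the minus strand, with 6 CG in 250 bases. That of Ehmt1 is chr2:24919644-24919859 on the minus strand, with 19 CG in 216 bases, cut so that it stays outside the annotated gene.
Atrx: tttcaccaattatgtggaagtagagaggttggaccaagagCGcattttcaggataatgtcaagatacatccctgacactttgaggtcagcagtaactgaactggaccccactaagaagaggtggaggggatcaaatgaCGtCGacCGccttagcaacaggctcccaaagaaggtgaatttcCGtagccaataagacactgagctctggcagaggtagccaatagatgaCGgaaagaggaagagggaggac
Ehmt1: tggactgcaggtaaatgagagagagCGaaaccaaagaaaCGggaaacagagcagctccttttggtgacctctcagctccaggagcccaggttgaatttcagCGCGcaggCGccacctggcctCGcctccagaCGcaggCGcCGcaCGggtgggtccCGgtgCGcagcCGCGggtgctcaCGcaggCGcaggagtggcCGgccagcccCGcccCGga
The full 250-base window held 26 CG at Ehmt1 and 51 at Tet2, whose window lies inside the annotated gene and is not printed. A CG reads the same on both strands, and 92.1% of the 32851 windows in the table hold at least 1, with a median of 6. The 46 windows of the listed genes had a median of 22.5. The 3 genes that rose thus ran from 6 CG at Atrx, the median of the table, to 51 at Tet2, and no DNA methylation was measured here.

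H3K9 methyltransferases place the mark itself. Ehmt1 encodes GLP, which acts as a pair with G9a, the product of Ehmt2, to place H3K9 mono- and dimethylation in active chromatin regions. Its log2 signals were 7.73, 7.73 and 7.79 in knockout and 7.10, 7.24, 7.46 and 7.30 in wild type testis. All knockout arrays lay above all wild type arrays, and the knockout arrays were close together. The mean was 7.75 ± 0.03 (SD, n = 3) against 7.28 ± 0.15 (SD, n = 4), a log2 fold change of 0.48 (SE 0.09, limma adjusted p = 0.0147), 1.39-fold. The exact permutation p (two-sided) was 0.0286, the smallest that 35 divisions of 7 arrays can give. Hdac2, Kdm4a and Kdm4c, which did not pass in limma, gave the same permutation p. Within the title-number groups the differences were 0.63, 0.38 and 0.49, and blocking on these groups gave 0.49 (limma adjusted p = 0.0269). Without knockout 3 it was 0.46 and no longer past the threshold (limma adjusted p = 0.0586, range 0.0120 to 0.0586 with 1 array left out).

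Its partner Ehmt2 gave 10.12, 9.96 and 9.83 in knockout and 10.17, 10.11, 10.03 and 9.94 in wild type arrays, and the genotypes overlapped. On the log2 scale the difference was −0.09 (95% confidence interval −0.29 to 0.11, limma adjusted p = 0.485). A second Ehmt2 probe set, described below, was past the threshold in the other direction from Ehmt1. Setdb1, the trimethylating enzyme that KAP1 recruits to retrotransposons, gave 8.07, 8.07 and 7.96 in knockout and 8.11, 8.07, 8.25 and 8.04 in wild type arrays. The groups overlapped, and the interval of its log2 fold change ran from −0.25 to 0.08. A dimmer Setdb1 probe set, still above the array medians, gave 5.80, 6.03 and 5.84 in knockout and 6.07, 6.38, 6.09 and 6.04 in wild type arrays. There all knockout arrays lay below all wild type arrays, and the log2 fold change of −0.26 (95% confidence interval −0.48 to −0.03) did not pass over all probe sets (limma adjusted p = 0.131). Setdb2, a related enzyme, gave 7.15, 7.11 and 7.18 against 7.21, 7.12, 7.26 and 7.32, with a log2 fold change of −0.08 (95% confidence interval −0.23 to 0.07). Suv39h2, the testis-enriched counterpart of Suv39h1 that trimethylates H3K9 at centromeric heterochromatin, gave 7.10, 7.05 and 7.29 against 7.44, 7.18, 7.27 and 7.63. Its log2 fold change of −0.23 (SE 0.11) did not pass (limma adjusted p = 0.190), although the difference was negative in each title-number group (−0.34, −0.18 and −0.34). Of the 5 measured methyltransferases, 1 rose and 0 fell, and the median log2 fold change was −0.08.

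Trim28 encodes KAP1, the scaffold through which zinc finger repressors bring Setdb1 to DNA. Its log2 signals were 11.00, 11.15 and 11.04 in knockout and 11.05, 11.01, 11.12 and 11.03 in wild type arrays. The genotypes overlapped, and the log2 fold change was 0.01 (SE 0.06, 95% confidence interval −0.13 to 0.16). A second bright Trim28 probe set gave 0.04 (95% confidence interval −0.10 to 0.18). Atf7ip, which stabilises Setdb1 in the nucleus, had a log2 fold change of −0.14 (SE 0.09) and overlapping groups. Mphosph8, the H3K9 methylation reader of the HUSH silencing complex, had a log2 fold change of −0.07 (SE 0.08). Its dimmer probe sets, still above the array medians, gave −0.13 (95% confidence interval −0.34 to 0.08) and −0.26 (95% confidence interval −0.48 to −0.05). Neither passed (limma adjusted p = 0.379 and 0.108), and the arrays overlapped on both.

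Pphln1, which encodes the HUSH subunit periphilin, was the 1 gene of the 32 whose knockout arrays lay wholly below the wild type arrays, with 9.14, 9.32 and 9.28 against 9.61, 9.75, 9.34 and 9.5. The log2 fold change of −0.30 (SE 0.10) did not pass over all genes (limma adjusted p = 0.0746), passed without wild type 3 (−0.37, limma adjusted p = 0.0367), and pointed the other way on a second probe set. Morc2a, an ATPase that works with HUSH, gave a log2 fold change of 0.14 (SE 0.07), and the germ cell gene Morc1, needed for retrotransposon silencing in the male germ line, gave 0.16 (SE 0.10). None of the 6 genes of this group passed the threshold, and 1 had an unadjusted limma p under 0.05.

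HP1 proteins read H3K9 methylation through a chromodomain. Cbx1 (HP1 beta) gave 8.32, 8.40 and 8.40 in knockout and 8.26, 8.08, 8.27 and 8.36 in wild type arrays, and its log2 fold change of 0.13 (SE 0.08, limma adjusted p = 0.264) did not pass. Cbx5 (HP1 alpha) gave 8.23, 8.20 and 8.26 against 8.27, 8.10, 8.36 and 8.20, with a log2 fold change of −0.0025 (95% confidence interval −0.17 to 0.16). Cbx3 (HP1 gamma) was represented by a dim probe set, with 4.99, 4.91 and 4.89 against 5.08, 5.31, 4.99 and 4.99, near or below the array medians. Another 4 probe sets carry Cbx3 together with a pseudogene of it, and were not used, so the log2 fold change of −0.16 (SE 0.09) is a weak measure of this gene. Lbr, the inner nuclear membrane receptor that tethers HP1 and heterochromatin, had a log2 fold change of −0.06 (SE 0.06, 95% confidence interval −0.19 to 0.08). On these probe sets the knockout and wild type arrays overlapped in all 4 genes. On a dimmer Cbx1 probe set all knockout arrays lay above all wild type arrays (0.18, 95% confidence interval 0.04 to 0.33, limma adjusted p = 0.0992). On a dimmer Cbx5 probe set they lay wholly below (−0.12, 95% confidence interval −0.26 to 0.01, limma adjusted p = 0.205). Neither passed over all probe sets, and the arrays overlapped on the remaining probe sets of both genes.

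Atrx had the largest change of the list. It encodes an X-linked ATPase that, with the histone chaperone Daxx, loads histone H3.3 at heterochromatin and repeats. Its log2 signals were 6.51, 6.28 and 6.66 in knockout and 5.49, 5.15, 5.51 and 5.64 in wild type arrays. The lowest knockout array (6.28) lay above the highest wild type array (5.64). The mean was 6.48 ± 0.19 (SD, n = 3) against 5.45 ± 0.21 (SD, n = 4), a log2 fold change of 1.04 (SE 0.13, limma adjusted p = 0.0108), 2.05-fold, and an exact permutation p of 0.0286 (two-sided). Differences within the title-number groups were 1.02, 0.95 and 1.02, and blocking on them gave 0.99 (limma adjusted p = 0.0185). With 1 array left out the log2 fold change ran from 0.94 to 1.14 and passed in 7 of 7 runs (limma adjusted p from 0.0122 to 0.0489).

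The size of the Atrx change depended on the probe set. Atrx has 7 probe sets, and log2 fold changes were positive for 7 of 7, but the 6 others were all below the array medians. Those 6 gave 0.06 to 0.58, with limma adjusted p from 0.0562 to 0.799 over all probe sets. Averaging the 7 gave a log2 fold change of 0.50 (limma adjusted p = 0.0170), so the direction was shared and the size was not.

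Atrx is the 1 measured X-linked gene of the list, and X-linked genes as a class were higher in knockout testis. Of 617 X-linked genes, 31.4% rose and 0 fell (289 had an unadjusted limma p under 0.05 in either direction), with a median log2 fold change of 0.18, while 8.34% of autosomal genes rose and their median was −0.05. Of the 31 autosomal heterochromatin genes, 2 rose. The part of X linkage in the Atrx result was not tested. Daxx, on an autosome, gave 9.41, 9.47 and 9.31 in knockout and 9.59, 9.5, 9.54 and 9.47 in wild type arrays. The highest knockout array equalled the lowest wild type array, and the log2 fold change of −0.13 (SE 0.06) did not pass. Whether Daxx and Atrx differed in their response was not tested.

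**Figure D2:**
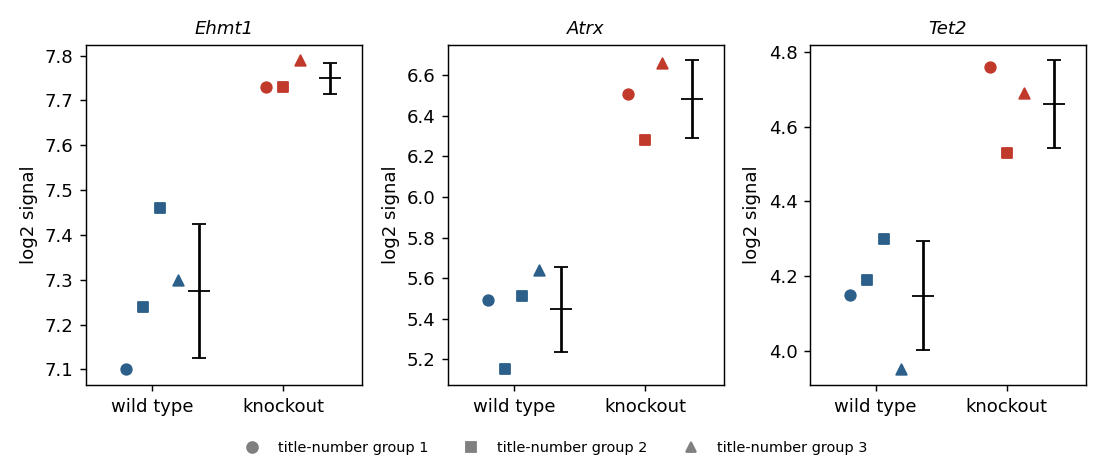
Log2 signal (vertical axis, 1 scale per panel) of Ehmt1, Atrx and Tet2 on each array, blue for wild type (n = 4) and red for Phf13 knockout (n = 3), with marker shape giving the title-number group and bars giving mean ± SD. In each panel the 3 knockout arrays lie above the 4 wild type arrays, with the widest separation for Atrx (6.28 to 6.66 against 5.15 to 5.64).

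Histone deacetylases remove acetyl groups so that H3K9 can be methylated. Hdac2 gave 8.87, 9.03 and 8.98 in knockout and 8.65, 8.58, 8.76 and 8.81 in wild type arrays, with no overlap. A log2 fold change of 0.26 (SE 0.08) was just outside the threshold (limma adjusted p = 0.0523). It lay inside with quantile normalization (0.28, limma adjusted p = 0.0258), with trend and robust settings and without the dimmest genes. It stayed outside with median centring (0.23, limma adjusted p = 0.0735) and with title-number group as a block (0.26, limma adjusted p = 0.0725). A dimmer Hdac2 probe set, still above the array medians, gave 0.11 (limma adjusted p = 0.447). Another, below the medians, gave 0.24 (limma adjusted p = 0.209), and the genotypes overlapped on both. Hdac1, which forms the same complexes, gave a log2 fold change of −0.12 (SE 0.09) with overlapping groups, a difference that was −0.43 in the first title-number group and 0.06 and −0.03 in the others.

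H3K9 demethylases of the Kdm3 and Kdm4 families take the mark off. Kdm3a, which acts on mono- and dimethyl H3K9 and is needed for the histone to protamine exchange in spermatids, gave a log2 fold change of −0.06 (SE 0.06) with overlapping groups. The 3 Kdm4 genes, whose products act on trimethyl H3K9, had positive fold changes, and none passed. Kdm4a gave 6.71, 6.94 and 6.88 in knockout and 6.69, 6.49, 6.70 and 6.55 in wild type arrays, a log2 fold change of 0.24 (SE 0.08, limma adjusted p = 0.0871). Kdm4b gave 5.85, 5.64 and 5.80 against 5.75, 5.47, 5.60 and 5.51, a log2 fold change of 0.18 (SE 0.09, limma adjusted p = 0.183). Kdm4c gave 5.07, 4.92 and 5.55 against 4.82, 4.88, 4.86 and 4.75. Its groups did not overlap, but knockout 3 stood well above the other arrays, and the log2 fold change was 0.35 with it and 0.17 without it (limma adjusted p = 0.109 and 0.212). Kdm4a and Kdm4c, like Hdac1, lie on chromosome 4 with Phf13, and none of these 3 genes passed the threshold.

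DNA methyltransferases copy or establish methylation at CG sites. Dnmt1, the maintenance enzyme, gave 7.42, 7.42 and 7.39 in knockout and 7.42, 7.42, 7.54 and 7.40 in wild type arrays. The fold change was −0.04 on the log2 scale (SE 0.06, 95% confidence interval −0.17 to 0.10). Dnmt3a, a de novo enzyme, gave 6.26, 6.37 and 5.91 in knockout and 5.91, 5.52, 5.86 and 5.60 in wild type arrays, where knockout 3 equalled the highest wild type array. The log2 fold change of 0.46 (SE 0.14) was just outside the threshold (limma adjusted p = 0.0527). It passed when title-number group was a block (0.47, limma adjusted p = 0.0470) and not with quantile normalization (0.40, limma adjusted p = 0.0726). Dnmt3b, the other de novo enzyme, gave 6.37, 6.55 and 6.43 against 6.34, 6.03, 6.45 and 6.22, a log2 fold change of 0.19 (SE 0.10, limma adjusted p = 0.230). A second Dnmt3b probe set of similar brightness gave 6.48, 6.38 and 6.42 against 6.11, 6.04, 6.32 and 6.32. There all knockout arrays lay above all wild type arrays, and the log2 fold change of 0.23 (95% confidence interval 0.03 to 0.43) did not pass (limma adjusted p = 0.119).

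Uhrf1, which guides Dnmt1 to newly copied DNA and reads H3K9 methylation, gave 8.82, 9.0 and 8.62 in knockout and 9.06, 9.0, 9.09 and 9.05 in wild type arrays. The wild type arrays were tightly grouped and knockout 2 reached the lowest of them. On the log2 scale the difference of −0.24 (SE 0.09) did not pass (limma adjusted p = 0.104), and it was −0.33 and past the threshold without knockout 2 (limma adjusted p = 0.0372), the array that lay apart on the second component. Without knockout 3 it was −0.14 (limma adjusted p = 0.278). Its relative Uhrf2 gave a log2 fold change of −0.11 (SE 0.08), with knockout 3 at 6.41 and the other arrays between 6.70 and 6.75. Hells, a remodeller that opens chromatin for DNA methylation, gave 8.75, 8.71 and 8.63 against 8.56, 8.53, 8.78 and 8.88, and its log2 fold change was 0.01 (95% confidence interval −0.21 to 0.23). Of the 6 genes that write or maintain DNA methylation, 0 passed the threshold in either direction, and 2 (Dnmt3a and Uhrf1) had an unadjusted limma p under 0.05.

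TET dioxygenases start the removal of DNA methylation by oxidising 5-methylcytosine. Tet2 gave 4.76, 4.53 and 4.69 in knockout and 4.15, 4.19, 4.30 and 3.95 in wild type arrays. All knockout arrays lay above all wild type arrays, but all 7 signals were below the array medians, and no detection call is given with the values, so a fold of this gene is uncertain. The mean was 4.66 ± 0.12 (SD, n = 3) against 4.15 ± 0.15 (SD, n = 4), a log2 fold change of 0.51 (SE 0.10, limma adjusted p = 0.0154) and an exact permutation p of 0.0286 (two-sided). Within the title-number groups the differences were 0.61, 0.29 and 0.74. The call held with 1 array left out in 4 of 7 runs (limma adjusted p from 0.0168 to 0.0595) and was lost without knockout 1 (0.0532), without wild type 1 (0.0504) and without knockout 3 (0.0595). Its second probe set, dimmer still, gave 0.13 (limma adjusted p = 0.501), and the mean of both gave 0.32 (limma adjusted p = 0.0506). Tet1 (−0.10, SE 0.07) and Tet3 (−0.02, SE 0.07) were also represented by dim probe sets and their groups overlapped.

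**Figure D3:**
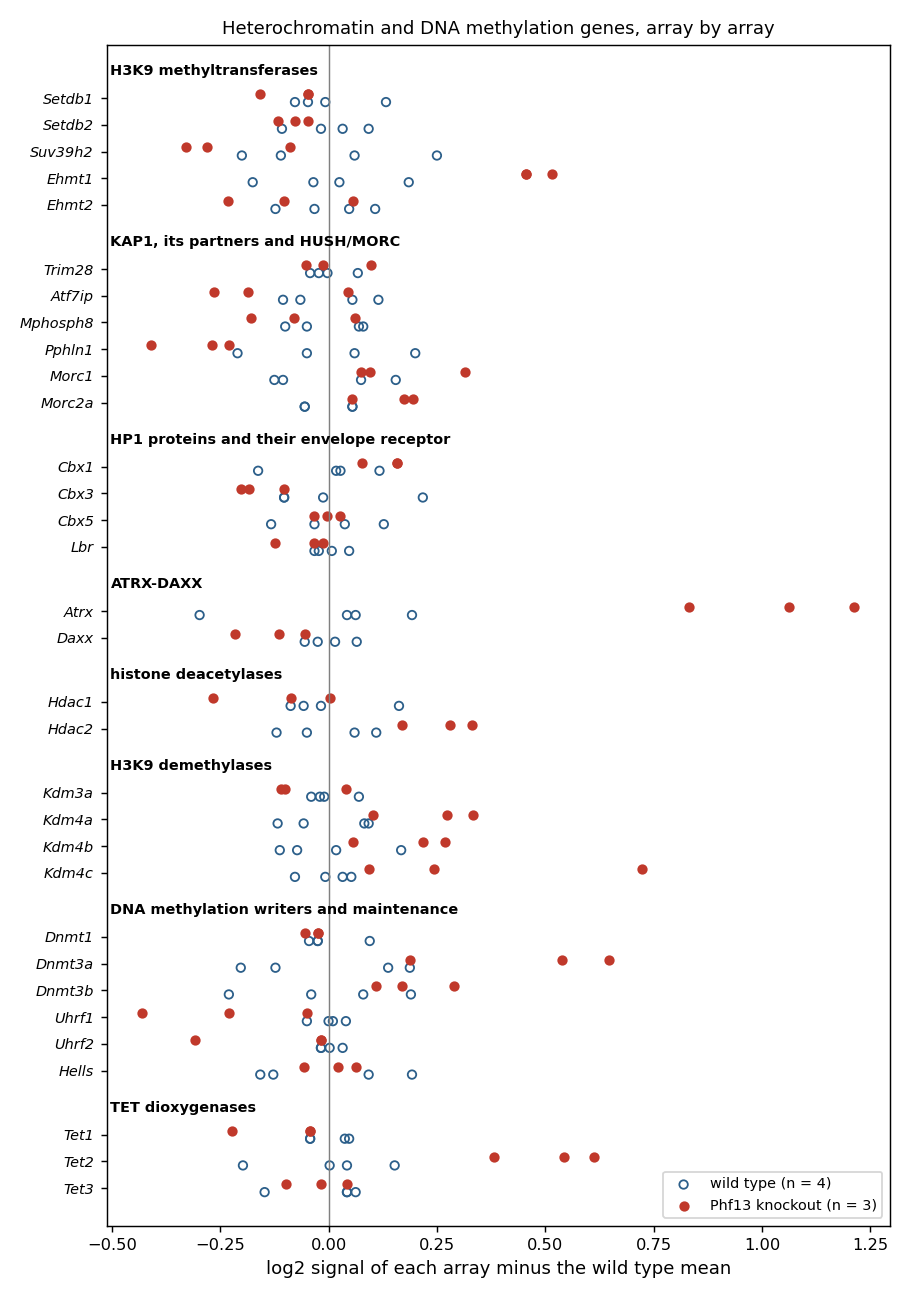
Log2 signal of each array minus the wild type mean of the same gene (horizontal axis) for the 32 measured heterochromatin genes, red for the 3 knockout arrays and open blue for the 4 wild type arrays. The arrays separate for 6 genes above wild type (Ehmt1, Atrx, Hdac2, Kdm4a, Kdm4c and Tet2) and for 1 below (Pphln1), and the single far point of Kdm4c is knockout 3.

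Several genes were read by more than 1 probe set, and these did not always agree. Over all 75 probe sets annotated to 1 listed gene alone, 5 were higher and 2 lower in a limma fit on all probe sets. That is 6.67% and 2.67%. Of all 34958 such probe sets 11.4% passed, 7.33% higher and 4.07% lower. Of 20 genes with several probe sets, 9 had fold changes of both signs.

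Pphln1 was split. Its brighter probe set had a log2 fold change of −0.30 (limma adjusted p = 0.0879 in this fit), while its other probe set gave 7.34, 7.14 and 7.33 in knockout and 6.75, 6.70, 7.03 and 7.03 in wild type arrays. The second was higher on every knockout array, with a log2 fold change of 0.39 (SE 0.10, limma adjusted p = 0.0470). The arrays of the genotypes were apart on both probe sets, in opposite directions.

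Dnmt3a was split as well. Beside the probe set above, another gave 5.88, 5.87 and 5.98 in knockout and 5.21, 5.12, 5.50 and 5.20 in wild type arrays and was higher (log2 fold change 0.65, SE 0.09, limma adjusted p = 0.0137). A further pair of Dnmt3a probe sets that were also brighter than the array medians gave −0.04 and −0.07, with 95% confidence intervals of −0.18 to 0.10 and −0.23 to 0.08. The transcript regions that these probe sets read are not given in the sources used here.

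For Ehmt2 and Uhrf1 a second probe set was lower in knockout testis. That of Ehmt2 gave 7.93, 7.98 and 7.87 in knockout and 8.38, 8.34, 8.11 and 8.14 in wild type arrays, a log2 fold change of −0.32 (SE 0.08, limma adjusted p = 0.0465). That of Uhrf1 gave 7.41, 7.55 and 7.41 against 7.86, 7.86, 7.74 and 7.73, a log2 fold change of −0.34 (SE 0.07, limma adjusted p = 0.0218). In both, the knockout arrays lay wholly below the wild type arrays, and the brighter probe set had the same sign without passing (−0.09 and −0.24).

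**Figure D4:**
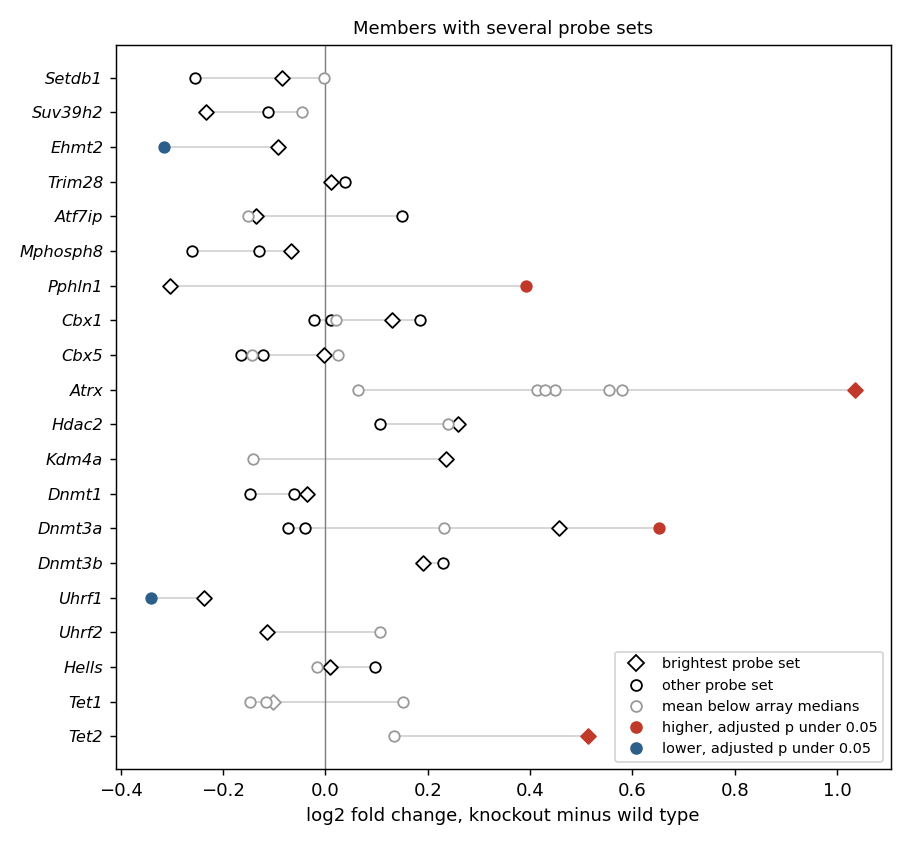
Log2 fold change (knockout minus wild type, horizontal axis) of every probe set of the 20 genes with several; diamonds are the brightest probe set of each gene, circles the others, grey outlines those with a mean below the array medians, and filled points those past an adjusted p of 0.05. Pphln1 spans −0.30 to 0.39, Dnmt3a spans −0.07 to 0.65 and Atrx spans 0.06 to 1.04.

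Other genes of the same pathways passed in both directions. Of 54 measured genes from a list of further readers, writers, erasers and partners, 5 rose and 5 fell (9.26% each, against 9.07% and 7.05% of all genes), with a median log2 fold change of −0.05. Among the rises were 3 demethylase genes of H3K9: the X-linked Phf8 (0.48, SE 0.07), its relative Kdm7a (0.60, SE 0.11) and Kdm3b (0.23, SE 0.06). Demethylase genes did not move as a class, since Kdm4d, described below, fell. Their relatives Jmjd1c (0.10, limma adjusted p = 0.370) and Phf2 (−0.22, limma adjusted p = 0.0843) did not pass. The X-linked methyl-CG binding factor Zbtb33, or Kaiso, rose by 0.67 (SE 0.16), and the H3K9 methyltransferase gene Prdm2, on chromosome 4 with Phf13, rose by 0.40 (SE 0.11). Of the 3 X-linked genes on this list 2 rose, and of its 51 autosomal genes 3 rose and 5 fell. Over all genes tested, 31.4% of X-linked genes rose and 0 fell, while 8.34% of autosomal genes rose and 7.3% fell.

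Of the 5 genes that fell, Dnmt3l, the catalytically inactive partner of Dnmt3a in germ cells, had the lowest log2 fold change. It fell by 0.44 on the log2 scale (SE 0.10), with 6.06, 6.13 and 6.42 in knockout and 6.72, 6.67, 6.53 and 6.67 in wild type arrays. Kdm4d, a testis-rich H3K9 demethylase gene related to the Kdm4 genes above, fell by 0.29 (SE 0.07). Atf7ip2, a paralogue of Atf7ip, fell by 0.38 (SE 0.10), the NuRD subunit gene Mbd3 fell by 0.35 (SE 0.08), and the lamin gene Lmnb2 fell by 0.40 (SE 0.09). Limma adjusted p-values of the 10 genes that passed ran from 0.0120 (Phf8) to 0.0469 (Prdm2), and these counts rested on single arrays. Without knockout 3 the list held 0 rises and 1 fall, and without knockout 1, wild type 1 or wild type 2 it held 2 rises and 0 falls each time. Leaving out wild type 3 gave 3 rises and 5 falls, and leaving out any title-number group gave none in either direction. Over all 18194 genes, 96 rose and 79 fell without knockout 3, and 1524 rose and 1050 fell without wild type 3. Without knockout 1, wild type 1 and wild type 2 the rises were 737, 533 and 958 and the falls 259, 208 and 406.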

How the data were processed

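Total RNA (2 ug) from whole testis was labelled with biotin and hybridised to Affymetrix arrays, per the labels' protocols. The authors deposited 1 table of log2 signals, with 45101 probe sets and 7 arrays; the log2 scale was read from the range of 1.59 to 13.92. The submitters' processing notes name Affymetrix Expression Console 1.4.1; summarisation and normalization are not given in the sources used here. Nothing was renormalized. Arrays carry no read depth, and their number limits the precision. Any 2 arrays held the same value at 9.82% of probe sets at most, so each counted as 1 sample.

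GEO's platform annotation gave 34958 probe sets 1 symbol, 932 several and 9211 none. Each of 18194 genes was represented by its single-symbol probe set of highest mean, the 64 control probe sets included. Chromosomes came from a RefSeq table (GRCm38.p6). Knockout was tested against wild type in R 4.3.3 with limma 3.58.1 (lmFit, eBayes, two-sided, Benjamini-Hochberg over all genes, threshold 0.05), tested first on simulated data. "Rose" and "fell" mean past that threshold; errors are SE of the fit or SD between arrays. Genes below the array medians were kept, and no gene was filtered out.

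The members, the further pathway list and the marker lists were chosen with earlier results of these data known. Array-by-array values are given for heterochromatin genes past the threshold, the measured H3K9 methyltransferase genes, the HP1 genes and the 3 DNA methyltransferase genes. Further pathway genes are named when past the threshold, except Jmjd1c and Phf2, which were named after their values were seen. Array values of any other gene were chosen for print after they were seen. Title-number groups were treated as a possible batch: between a knockout and a wild type array, deviations from the genotype mean had r of 0.103 to 0.319 inside a group and at most 0.0227 otherwise. Alternatives were quantile normalization, median centring, filters on dim genes, averaging probe sets, trend and robust settings, array weights, blocks, and leaving out arrays, title-number groups or (chosen after seeing the data) control probe sets.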

Additional observations from a re-analysis of the deposited data

Results flagged for a closer look

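In the wild type group of 4 arrays, a single array lay far from the other 3 for 2 of the genes described. Dnmt1 in wild type 3 was at 7.54, the others lying between 7.40 and 7.42. Tet3 in wild type 4 was at 4.79, the others lying between 4.98 and 5.0. Chance alone flags about 1 in 20 groups, and 32 genes and Phf13 were examined. Neither gene passed the threshold with or without that array. Knockout groups, with 3 arrays, were not examined this way.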

How the results depend on the processing

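The median log2 fold change of the 32 genes stayed between −0.06 and −0.01 under all 20 alternatives. Counts of calls moved more. Calls over all genes ran from 175 (without knockout 3) to 2574 with 1 array left out, being 996 when knockout 1 was dropped, 741 for wild type 1 and 1364 for wild type 2, and were 3, 0 and 4 with a title-number group left out. Of the heterochromatin genes, 5 rose with trend and robust settings, 1 to 4 with 1 array left out and 0 with any title-number group left out. Over all 18194 genes, 1820 rose with trend and robust settings and 96 to 1524 with 1 array left out. With a title-number group left out 0, 0 and 1 rose. A single gene fell without the dimmest 50% of genes (1, Pphln1) and with probe sets averaged (1, Uhrf1), and 0 to 1 fell with 1 array left out. Among all genes tested, 1736 of 9095 fell without the dimmest 50%. With probe sets averaged 1228 fell, and with 1 array left out 79 to 1210. Of the further pathway genes 3 rose with quantile normalization, 3 with probe sets averaged, 0 to 5 with 1 array left out and 0 without a title-number group, and 2 fell with the replicate block, 0 to 5 with 1 array left out and 0 without a title-number group. Over all genes, 1610 rose with quantile normalization and 1504 with probe sets averaged. The cause of these moves in the counts was not tested. Same-numbered arrays do not all deviate together (r of 0.182, 0.103 and −0.143 for replicates 1 to 3), so the numbers do not pair the arrays. With the replicate block, in which wild type 4 stands alone and drops out, 1634 genes rose and 660 fell, and 3 heterochromatin genes rose (Atrx, Ehmt1 and Tet2).

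Of 888 values of single genes, 735 kept direction and side of the threshold, 109 lost the call and 15 gained it. The other 29 changed sign, none of a heterochromatin gene that had passed. These values cover 43 genes, and 29 heterochromatin genes among them had not passed with all arrays, so had no call to lose. The share of 109 in 888 therefore understates how often a call was lost. With fits on other probe sets aside, the call held in 16 of 20 alternatives for Ehmt1, 16 of 19 for Atrx and 11 of 18 for Tet2. Sign changes in log2 fold change were as follows. With median centring Trim28 was −0.02 and Hells −0.022. With 1 array left out Trim28 ran from −0.0325 to 0.0425, Cbx5 from −0.047 to 0.04, Hells from −0.043 to 0.073 and Tet3 from −0.073 to 0.0125. Without the first title-number group Cbx5 was 0.01, Hdac1 0.012 and Hells −0.06; without the second Trim28 was −0.02, Cbx5 0.01, Hells −0.03 and Tet3 0.055. With probe sets averaged Pphln1 was 0.045. On another probe set Atf7ip was 0.15, Pphln1 0.39, Cbx1 −0.0225, Cbx5 0.024, Kdm4a −0.14, Dnmt3a −0.04 and −0.0725, Uhrf2 0.11, Hells −0.016 and Tet1 0.15. Without control probe sets, chosen after seeing the data, the same 3 heterochromatin genes rose. Tet2 was not tested without the dimmest genes, nor Atrx without the dimmest 50%. Signals below the array medians limit what can be said of Tet1, Tet2, Tet3 and Kdm4c.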
